A study of Mus musculus with 6 samples.

Results

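The FoxO factors and the genes of fasting atrophy were followed here as 10 genes, Foxo1, Foxo3, Foxo4, Fbxo32, Trim63, Ddit4, Txnip, Klf15, Sesn1 and Gadd45a. They were chosen by name from the pathway, with earlier results of these data known. All 10 were found among 23152 genes measured. They rest on 80 of the array's 269751 probe sets, the short runs of probes that each report on a stretch of transcript, and a gene's value is the mean of its probe sets on the log2 scale. RNA came from the soleus, a slow hindlimb muscle, of male mice aged 18 weeks. The knockout mice (Gna13 MKO, here MKO) were Ckmm-Cre; Gna13 flox/flox, with Cre recombinase driven by the muscle creatine kinase promoter, and the controls (WT) were Gna13 flox/flox without Cre. Each genotype had 3 mice with 1 array each, labelled as biological replicates. Every mouse had fasted for 14 h, so the arrays hold no fed state and measure no response to fasting itself. The controls carried no Cre, so the presence of Cre and the loss of Gna13 cannot be told apart. The Ckmm promoter is active in skeletal and heart muscle and not in the vessels, nerves and connective tissue of the same sample.

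FoxO proteins are forkhead transcription factors that the insulin and Akt pathway keeps out of the nucleus. When insulin drops in fasting, they enter the nucleus and switch on ubiquitin ligases, autophagy genes and genes that spare glucose, while glucocorticoids act on many of the same promoters. Their activity is set mainly by phosphorylation and place in the cell, which RNA arrays do not measure.

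The letters that FoxO proteins bind are shown first for the members whose promoters hold them. RefSeq promoter windows of GRCm38.p6, from 250 bases before to 50 bases after a transcript start, were found for 8 of the 10 genes. The core FoxO motif GTAAACA, searched on both strands, lay in the windows of Trim63, Txnip and Sesn1, against 3.65% of 32851 windows of the same length. The first 2 of these genes are shown over the 250 bases before their start and Sesn1 over 29 bases around its match, which spans bases 23 to 29 of its transcript. Capitals mark the motif or its reverse complement.
Trim63, chr4:134314870-134315119, plus strand: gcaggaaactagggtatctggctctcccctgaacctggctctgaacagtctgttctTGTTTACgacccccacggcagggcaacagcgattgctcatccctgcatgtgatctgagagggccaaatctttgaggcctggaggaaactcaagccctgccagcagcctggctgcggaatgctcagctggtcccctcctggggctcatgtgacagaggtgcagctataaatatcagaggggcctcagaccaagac
Txnip, chr3:96557707-96557956, plus strand: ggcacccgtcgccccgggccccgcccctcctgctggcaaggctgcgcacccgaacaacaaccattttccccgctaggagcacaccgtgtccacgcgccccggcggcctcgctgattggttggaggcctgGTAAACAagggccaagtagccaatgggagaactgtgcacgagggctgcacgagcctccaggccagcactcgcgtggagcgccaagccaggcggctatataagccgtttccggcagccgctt
Sesn1, chr10:41810585-41810613, plus strand: gaaccttctacTGTTTACcagccttttgg
In Trim63 the motif spans bases -194 to -188 from the start. The hexamer AGAACA of the glucocorticoid receptor element lies on the minus strand right before it, at -200 to -195, and does not overlap it. That hexamer is common, in 19.0% of windows on either strand, and among the members only the Trim63 window held it. The full element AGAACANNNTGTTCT was, letter for letter, in 3 windows of the whole set and in no member's. The Trim63 letters tgaacagtctgttct, right before the FoxO motif, differ from it only in the first base. Near matches were not counted in the other windows. A match describes letters in a window and not a bound factor.

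As a check of the genotype, 1 of 7 Gna13 probe sets, 17257825, stood at 3.43, 4.25 and 4.33 in MKO, against 5.48, 6.23 and 6.16 in WT, a difference of -1.95 (SE 0.40). Over all 7 the mean differed by 0.04 (SE 0.13), with 3 of the others higher in every MKO array. The exons behind single probe sets were not analysed here. All 8 slow fibre markers had values above the median gene. All 10 fast fibre markers did too, so the measure does not single out slow muscle. Myh7, the slow myosin heavy chain, stood at 10.93 in MKO and 11.03 in WT. Of the slow fibre markers 3 were higher and 5 lower in MKO. Tpm3 was lower in every MKO array, by -0.31 (SE 0.10, limma unadjusted p = 0.00994). MKO replicate 1 stood apart from the other arrays, at 33.6 on a first principal component (32.8% of the variance) that spanned -19.7 to 14.4 elsewhere. MKO replicate 2 stood apart on the second (20.5%), at 31.4, with -12.8 to 1.09 elsewhere. The fast fibre markers of MKO replicate 1 averaged 1.15 below the WT mean. Myh4, a gene of that list, stood at 5.11, 7.94 and 11.51 in MKO, against 10.89, 9.48 and 11.72 in WT. Over the fast fibre list the median difference was -0.06, with 3 genes higher and 7 lower. Of the 8 fibroblast markers 7 were lower in MKO, with a median of -0.30 and mean deviations from WT of -0.51 to -0.07 over MKO arrays and -0.19 to 0.16 over WT arrays, and 5 of 6 tenocyte markers were lower, with a median of -0.11. Of the 8 macrophage markers 7 were lower, with mean deviations from WT of -0.30 to -0.14 over MKO arrays and -0.12 to 0.20 over WT arrays, and their part in the results was not tested. Higher in MKO were 3 of 7 adipocyte, 3 of 6 satellite cell and 2 of 3 Schwann cell markers. Of the smooth muscle and pericyte markers 2 of 7 were higher, and of the erythroid markers 0 of 2. Of all genes 46.6% were higher. In whole muscle, fewer cells of a type and less RNA per cell cannot be told apart.

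With limma, none of the 10 genes passed an adjusted p of 0.05 over all genes (adjusted p = 0.9997 for each), and of all 23152 genes 0% did. At an unadjusted p under 0.05, 3 of the 10 stood out, Foxo1 and Ddit4 higher and Sesn1 lower in MKO, and 4.33% of all genes met that mark, 1.92% as higher and 2.41% as lower. In 3 members the groups did not overlap, with Foxo1 and Klf15 above WT in every MKO array and Sesn1 below. That held for 9.25% of all genes, 4.26% above and 4.99% below. Over the 10 members, 7 were higher and 3 lower, with a median difference of 0.03. Of all genes 46.6% were higher, with a median difference of -0.01. With 3 mice per genotype, the two-sided exact permutation test has 0.1 as its smallest p, and Foxo1, Klf15 and Sesn1 had that value.

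**Figure D1:**
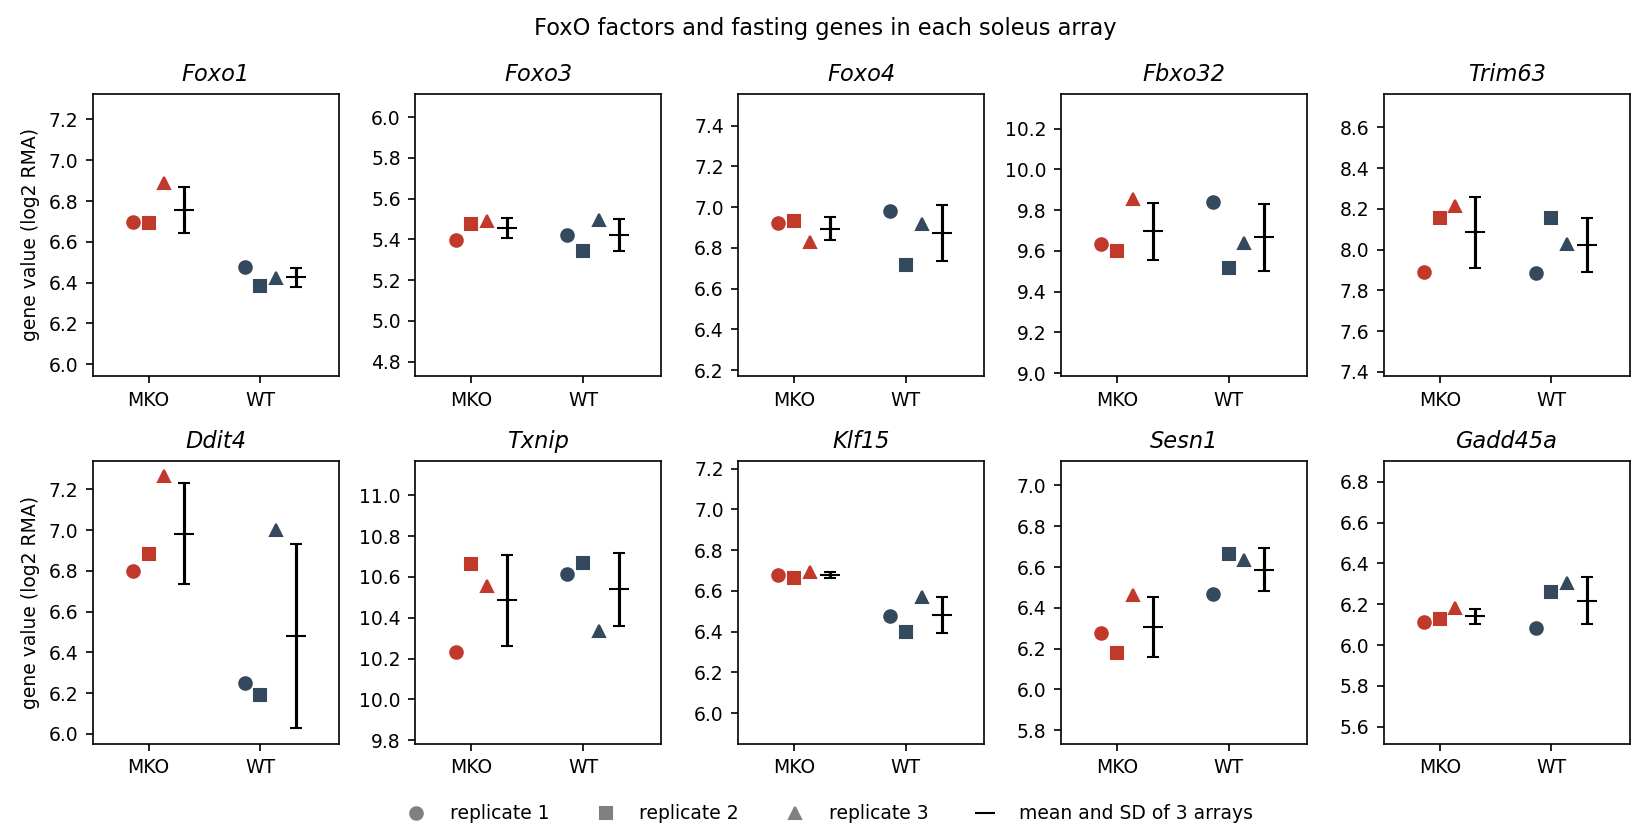
Gene value (log2, vertical axis, the same span of log2 units in each panel) of each member in the 3 MKO and 3 WT arrays, with symbols for the replicate number and bars for the mean and SD of 3 arrays. Foxo1 and Klf15 lie higher in every MKO array, Fbxo32 and Trim63 overlap, and WT replicate 3 has a Ddit4 value among the MKO values.

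Foxo1, the FoxO factor best known for fasting metabolism in muscle and liver, was higher in MKO. Its values were 6.69, 6.69 and 6.89 in the MKO arrays, against 6.48, 6.38 and 6.42 in the WT arrays. Every MKO array lay above every WT array, by at least 0.214. Mean levels were 6.76 ± 0.11 in MKO and 6.43 ± 0.05 in WT (SD, n = 3 each). They differed by 0.33 (SE 0.11) or 1.26-fold, with a 95% confidence interval of 1.06-fold to 1.49-fold (limma unadjusted p = 0.013). All 6 Foxo1 probe sets were higher in MKO, by 0.16 to 0.65. The probe set with the largest difference, 17397500, stood at 8.46, 8.52 and 8.98 in MKO, against 7.97, 7.86 and 8.18 in WT. That probe set differed by 0.65 (SE 0.18, limma adjusted p = 0.977 over all rows). Without MKO replicate 1 the gene's difference was 0.36, and with the median in place of the mean of its probe sets it was 0.25 (limma unadjusted p = 0.165).

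The other FoxO factors did not differ beyond the spread between mice. Foxo3, which drives ligase and autophagy genes in wasting muscle, stood at 5.40, 5.47 and 5.49 in MKO, against 5.42, 5.34 and 5.50 in WT. Foxo4, the X-linked member of the family, stood at 6.92, 6.93 and 6.83 in MKO, against 6.98, 6.72 and 6.92 in WT. In both genes the arrays of the groups were mixed. The Foxo3 difference was 0.03 (SE 0.13), an interval of 0.842-fold to 1.24-fold. That of Foxo4 was 0.02 (SE 0.11), from 0.856-fold to 1.20-fold. Both intervals reach into that of Foxo1, and the difference between the factors was not tested. Of the Foxo3 probe sets 5 were higher and 3 lower, and of the Foxo4 probe sets 5 were higher and 2 lower. Both differences were under 0 when WT replicate 2 was left out, Foxo3 at -0.0061 and Foxo4 at -0.06. Foxo3 moved further upward with other summaries, to 0.22 (limma unadjusted p = 0.293) with the probe set median and to 0.20 (unadjusted p = 0.130) with its brighter probe sets only.

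The ubiquitin ligase genes that define fasting atrophy showed no difference beyond the spread between mice. Fbxo32 encodes atrogin-1, the F-box protein that selects substrates for a cullin ligase in wasting muscle. It stood at 9.64, 9.60 and 9.85 in MKO, against 9.84, 9.52 and 9.64 in WT. The highest and the lowest of the WT arrays enclosed MKO replicates 1 and 2, and the difference of 0.03 (SE 0.10) left an interval of 0.881-fold to 1.18-fold. Its 11 probe sets ran from -0.30 to 0.25, 7 higher and 4 lower.

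Trim63 encodes MuRF1, a RING ligase that targets myosin and other sarcomere proteins, and its promoter carries the adjoining FoxO and glucocorticoid letters shown above. It stood at 7.89, 8.16 and 8.21 in MKO, against 7.89, 8.15 and 8.03 in WT. The lowest array of each group had the same value at this rounding, and the difference was 0.06 (SE 0.11), from 0.882-fold to 1.24-fold. Of its 8 probe sets 7 were higher and 1 lower in MKO, between -0.24 and 0.24, each at an unadjusted p above 0.05. Neither direction is fixed, since without MKO replicate 3 Fbxo32 differed by -0.05 and Trim63 by -0.0011. With the probe set median Fbxo32 differed by 0.16 (limma unadjusted p = 0.252) and Trim63 by 0.16 (unadjusted p = 0.202).

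**Figure D2:**
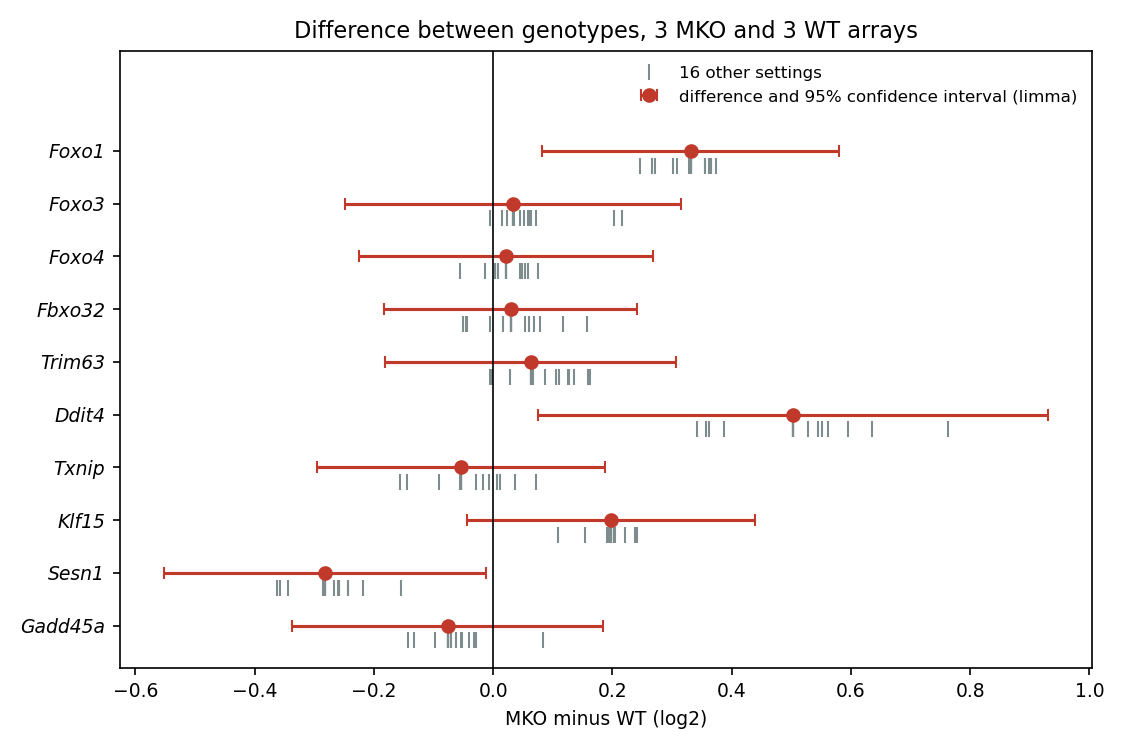
Difference between MKO and WT (log2, horizontal axis) for each member, with the limma estimate and 95% confidence interval as points and bars, and grey ticks for the estimates under 16 other settings. The intervals of Foxo1, Ddit4 and Sesn1 lie off 0, and the ticks of Foxo3, Foxo4, Fbxo32, Trim63, Txnip and Gadd45a fall on both sides of it.

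Ddit4 had the largest difference among the members and also the widest spread. It encodes REDD1, a stress protein that restrains the growth kinase complex mTORC1 and is induced by glucocorticoids, low oxygen and fasting. Its values were 6.80, 6.88 and 7.26 in MKO, against 6.25, 6.19 and 7.001 in WT. WT replicate 3 lay above MKO replicates 1 and 2, so the groups overlapped (exact permutation p = 0.3). The mean difference was 0.50 (SE 0.20) or 1.42-fold, with an interval of 1.05-fold to 1.91-fold (limma unadjusted p = 0.0249). All 5 probe sets were higher in MKO, by 0.29 to 0.88. Leaving out WT replicate 3 moved the difference to 0.76 (limma unadjusted p = 0.000373, adjusted p = 0.573), and leaving out MKO replicate 3 moved it to 0.36 (unadjusted p = 0.106). Without WT replicate 1 it was 0.39 (limma unadjusted p = 0.105), and without WT replicate 2 it was 0.36 (unadjusted p = 0.115). With the median of the probe sets it was 0.34 (limma unadjusted p = 0.203).

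Klf15, a zinc finger factor that glucocorticoids induce and that promotes amino acid breakdown, was nearly the same in all 3 knockouts. It stood at 6.68, 6.66 and 6.69 in MKO, against 6.48, 6.397 and 6.57 in WT. Every MKO array lay above every WT array, by at least 0.0935, and all 4 probe sets were higher, by 0.08 to 0.42. The difference was 0.20 (SE 0.11) or 1.15-fold, and its interval of 0.970-fold to 1.36-fold includes no difference (limma unadjusted p = 0.101). With the median of the probe sets it was 0.11.

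Txnip, an arrestin-like protein that binds thioredoxin and limits glucose uptake, did not separate the groups. It stood at 10.23, 10.67 and 10.56 in MKO, against 10.61, 10.67 and 10.33 in WT, with the lowest array in each group well under the other pair. The difference was -0.05 (SE 0.11), from 0.815-fold to 1.14-fold, with 6 probe sets higher and 6 lower. The lowest value was that of MKO replicate 1, and without it the difference turned to 0.07. After quantile normalization it was 0.04.

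Sesn1 was the only member lower in MKO at an unadjusted p under 0.05, while Txnip and Gadd45a were lower within the spread between mice. Sesn1 encodes a sestrin, which holds back mTORC1 when amino acids are short and is a target of both FoxO and p53. Its values were 6.27, 6.18 and 6.46 in MKO, against 6.47, 6.67 and 6.63 in WT. The groups did not overlap, but MKO replicate 3 and WT replicate 1 were only 0.00076 apart. The difference was -0.28 (SE 0.12) or 1.22-fold lower, with an interval of 0.682-fold to 0.991-fold (limma unadjusted p = 0.0416). Its probe sets were split, with 9 lower and 5 higher. Probe set 17232920 stood at 5.16, 4.05 and 5.25 in MKO, against 6.53, 5.67 and 6.47 in WT, a difference of -1.40 (SE 0.42). 1 other Sesn1 probe set, also lower, had an unadjusted p under 0.05. With the median of the 14 probe sets the gene's difference was -0.15 (limma unadjusted p = 0.361). Without MKO replicate 2 it was -0.22 (limma unadjusted p = 0.155). Of the 6 fits with an array left out, 2 gave Sesn1 an unadjusted p under 0.05.

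Gadd45a, a stress-induced nuclear protein that ATF4 raises in wasting muscle, stood at 6.11, 6.13 and 6.18 in MKO, against 6.09, 6.26 and 6.31 in WT. WT replicate 1 was the lowest array of all, and the groups overlapped. The difference was -0.08 (SE 0.12), from 0.791-fold to 1.14-fold, with 1 probe set higher and 4 lower. Summarised by the probe set median, it was 0.08.

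**Figure D3:**
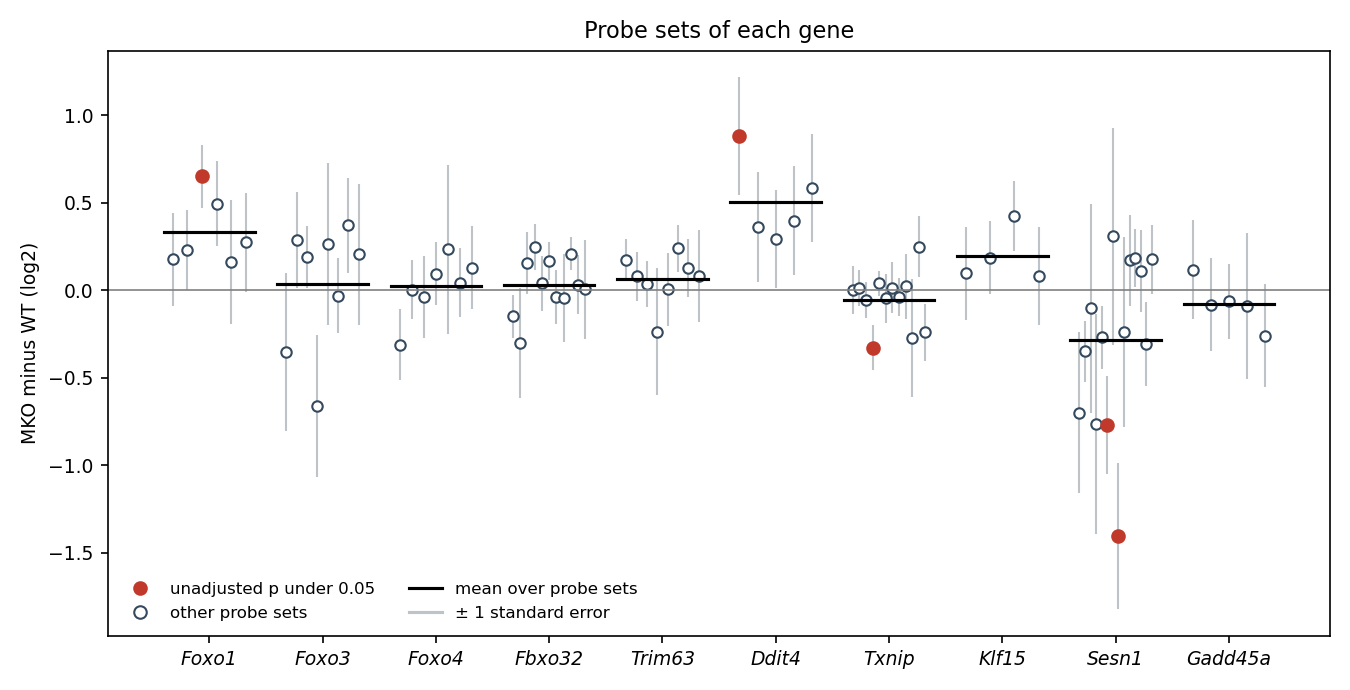
Difference between MKO and WT (log2, vertical axis) of each of the 80 probe sets, grouped by gene in the order of their identifiers, with 1 standard error. Filled points have a limma unadjusted p under 0.05, and the line is the mean over a gene's probe sets. All Foxo1, Ddit4 and Klf15 probe sets lie above 0, and those of Sesn1 spread from -1.40 to 0.31.

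Taken singly, the probe sets of the members differed about as often as those of the whole array. At an unadjusted p under 0.05, 5 of 80 (6.25%) were called, 2 higher and 3 lower in MKO, where 5.0% of all probe sets were. The arrays of the groups did not overlap in 7 of 80 (8.75%), against 9.86% of all probe sets. Probe sets of 1 gene share their transcripts and are not replicates. The 7 were 2 each of Foxo1 and Sesn1 and 1 each of Ddit4, Klf15 and Fbxo32.

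The genes around the members were examined in 6 lists, with 109 distinct genes measured. Limma called 0 of them at an adjusted p under 0.05. For the counts below, 46.6% of all genes were higher in MKO and 4.33% had an unadjusted p under 0.05. The groups did not overlap in 9.25% of all genes. Among regulators of FoxO, such as Akt kinases, deacetylases and insulin receptor substrates, 6 of 18 were higher and 12 lower, with a median of -0.02. Prkaa1, the alpha-1 catalytic subunit of AMPK, stood at 7.25, 7.49 and 7.51 in MKO, against 7.77, 7.88 and 7.53 in WT. Those groups did not overlap, and the difference was -0.31 (SE 0.12, limma unadjusted p = 0.0244), the 1 gene of this list under 0.05. Sgk1, a glucocorticoid-induced kinase that phosphorylates FoxO proteins as Akt does, was lower in every MKO array, by -0.17 (SE 0.12). Irs2 differed by 0.25 (SE 0.21) and Skp2, an F-box protein that marks FoxO1 for breakdown, by -0.19 (SE 0.18). Both values moved when single arrays were left out. Irs2 was 0.02 without MKO replicate 1 and 0.51 (limma unadjusted p = 0.0149) without MKO replicate 2, and Skp2 was -0.34 without WT replicate 3 and -0.09 without WT replicate 2.

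Genes reported as FoxO targets were higher in 18 of 25 cases, with a median of 0.05, and included no adjusted call. At an unadjusted p under 0.05, 1 was higher and 1 lower, and the groups did not overlap in 3 higher and 1 lower. Pdk4, the kinase that shuts pyruvate dehydrogenase in fasting, stood at 12.04, 12.05 and 12.19 in MKO, against 12.00, 11.94 and 11.85 in WT. Each MKO array was above each WT array, and the difference was 0.16 (SE 0.06, limma unadjusted p = 0.0192). Cited2, a protein that binds the coactivators CBP and p300, ran the other way, at 9.40, 9.58 and 9.29 in MKO, against 9.80, 9.67 and 9.66 in WT. Its difference was -0.29 (SE 0.09, limma unadjusted p = 0.00621), with no overlap. The repressor gene Bcl6 (0.21, SE 0.11) and the F-box gene Fbxo31 (0.19, SE 0.10) were higher in every MKO array at an unadjusted p above 0.05. Summarised by the probe set median, Bcl6 was at -0.04.

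The muscle ubiquitin ligase list went with Fbxo32 and Trim63 in showing little difference, with 6 of 17 genes higher, 11 lower, a median of -0.0044 and no gene at an unadjusted p under 0.05. Its differences lay between -0.16 and 0.19. After Fbxo31 the smallest p belonged to Trim55, the MuRF2 relative of Trim63 (0.18, SE 0.12), the muscle F-box gene Fbxo40 (-0.13, SE 0.08) and Stub1, which encodes the chaperone-linked ligase CHIP (-0.16, SE 0.12). Summarised by the probe set median, Stub1 was at 0.15, Fbxo31 at 0.28 (limma unadjusted p = 0.0361) and Fbxo40 at -0.25 (unadjusted p = 0.0364).

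**Figure D4:**
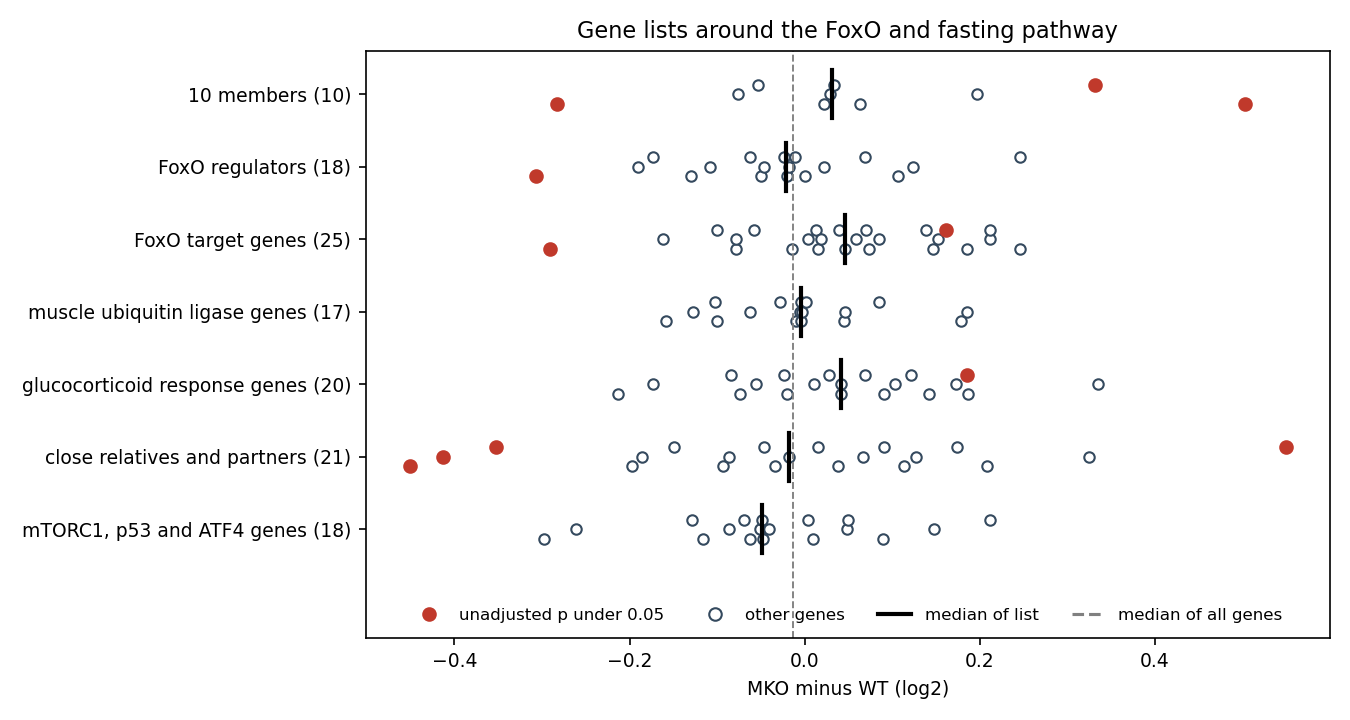
Difference between MKO and WT (log2, horizontal axis) for each gene of the 10 members and of the 6 lists, with the number of genes in parentheses. Filled points have a limma unadjusted p under 0.05, black bars are list medians, and the dashed line is the median of all genes. The list medians lie between -0.05 and 0.05.

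Glucocorticoid response genes were higher in 13 of 20 cases, with a median of 0.04. The groups did not overlap in 1 higher and 2 lower genes of the list. Zbtb16, a zinc finger gene strongly induced by glucocorticoids, stood at 8.68, 8.83 and 8.85 in MKO, against 8.60, 8.60 and 8.61 in WT. Each MKO array lay above the tight WT group, and the difference was 0.19 (SE 0.08, limma unadjusted p = 0.0484). Fkbp5, a chaperone that dampens the glucocorticoid receptor, differed by 0.33 (SE 0.17) with overlapping arrays. Zbtb16 was 0.37 with the probe set median, and without MKO replicate 3 Zbtb16 was 0.16 (limma unadjusted p = 0.108) and Fkbp5 0.19. Hsd11b1, the enzyme that regenerates active glucocorticoid inside cells, was lower in every MKO array, by -0.21 (SE 0.14). Sgk1, named above among the FoxO regulators, is also in this list and was lower in every MKO array, by -0.17 (SE 0.12).

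Among close relatives and partners of the members, 10 of 21 genes were higher and 11 lower, with a median of -0.02. Of these, 1 was higher and 3 were lower at an unadjusted p under 0.05. Arrdc2, an arrestin-domain gene of the Txnip family, stood at 6.64, 6.86 and 7.14 in MKO, against 6.27, 6.02 and 6.71 in WT. As with Ddit4, WT replicate 3 was the highest WT array and lay among the MKO values, and MKO replicate 3 was the highest of all. The Arrdc2 difference was 0.55 (SE 0.18, limma unadjusted p = 0.00839), while Txnip itself differed by -0.05.

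The sestrin Sesn2 was lower in every MKO array, as Sesn1 was. It stood at 3.92, 4.15 and 4.24 in MKO, against 4.45, 4.51 and 4.41 in WT, a difference of -0.35 (SE 0.16, limma unadjusted p = 0.044). These dim values lay below the median probe set of 4.84, and with only the brighter Sesn2 probe sets the difference was 0.0022. Gadd45b, a stress gene related to Gadd45a, stood at 5.48, 6.10 and 5.49 in MKO, against 6.04, 6.32 and 6.05 in WT. MKO replicate 2 lay among the WT arrays, and the difference was -0.45 (SE 0.17, limma unadjusted p = 0.0222). Klf2, a flow-responsive factor of endothelium, stood at 6.93, 7.11 and 7.68 in MKO, against 7.67, 7.67 and 7.62 in WT. Its difference of -0.41 (SE 0.16, limma unadjusted p = 0.0228) lay in MKO replicates 1 and 2. Without MKO replicate 1 Klf2 was -0.26 (limma unadjusted p = 0.101) and Gadd45b -0.34 (unadjusted p = 0.0760), and without MKO replicate 3 Klf2 was -0.63. All 8 endothelial markers were lower in MKO, with a median of -0.16, and their mean deviation from WT ran from -0.39 to -0.08 over MKO arrays and from -0.20 to 0.18 over WT arrays. Their part in the Klf2 difference was not tested.

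The list of mTORC1, p53 and ATF4 genes, through which Ddit4, Sesn1 and Gadd45a act or are induced, had 7 of 18 genes higher and 11 lower, with a median of -0.05 and no gene at an unadjusted p under 0.05. Wdr24 and Mios encode subunits of GATOR2, the complex that sestrins bind. Wdr24 was lower in every MKO array, by -0.30 (SE 0.14, limma unadjusted p = 0.0518), and Mios differed by -0.26 (SE 0.15) with overlap. Cdkn1a, the cell cycle inhibitor p21, differed by 0.21 (SE 0.14), and Tsc1, a brake on mTORC1, by -0.12 (SE 0.11). Without MKO replicate 1 Mios was -0.13 and Cdkn1a 0.07, and without MKO replicate 3 Mios was -0.39 (limma unadjusted p = 0.0188). Cdkn1a was 0.12 without WT replicate 1.

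**Figure D5:**
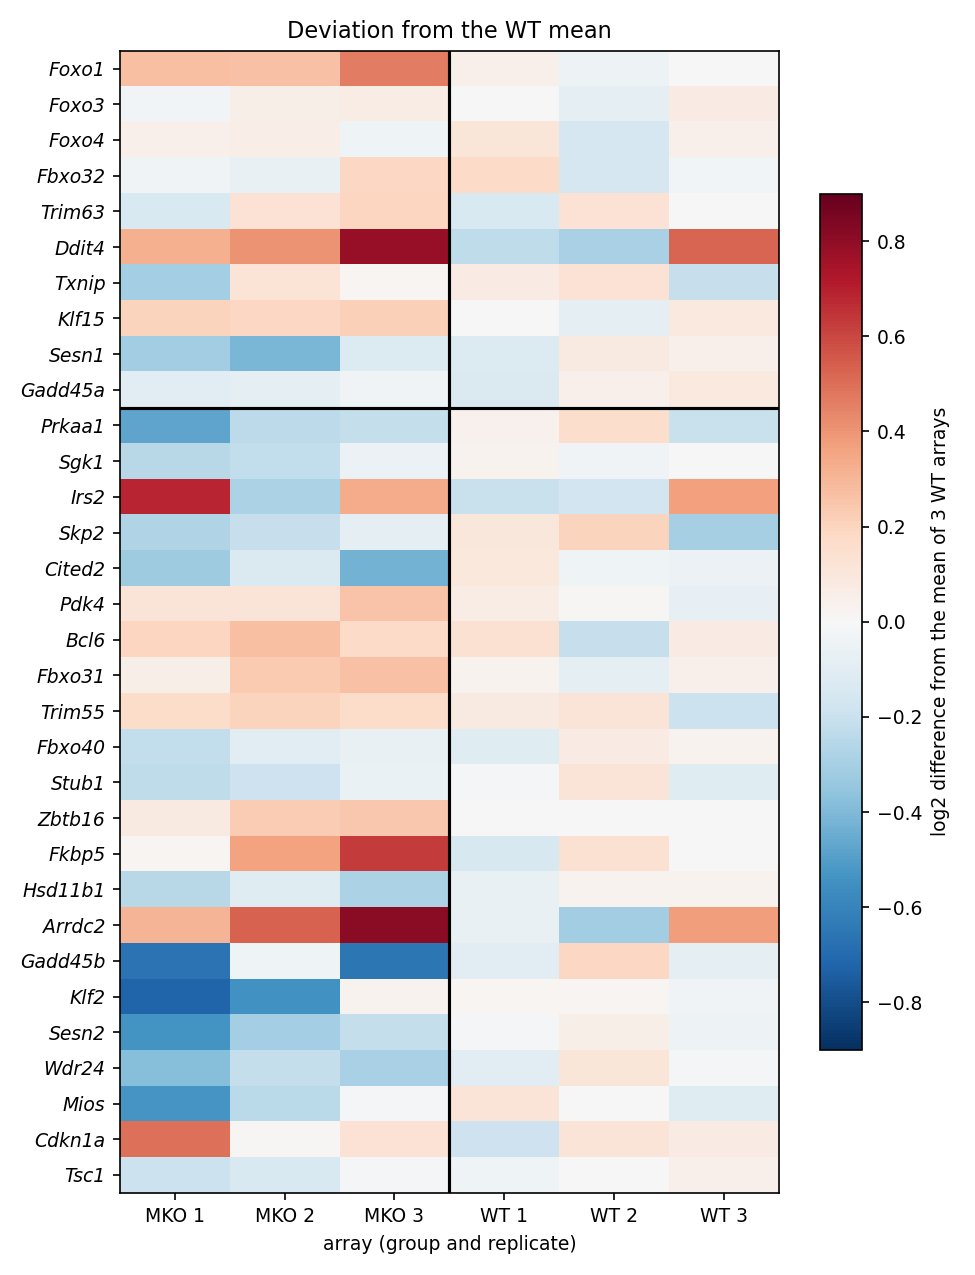
Deviation of each array (columns, MKO at left) from the mean of the 3 WT arrays (log2, colour scale) for the 10 members above the line and the 22 named list genes below it. Ddit4 and Arrdc2 are red in WT replicate 3 as well as in all MKO arrays, and Sesn1 and Sesn2 are blue in all MKO arrays. Sesn1 is about as blue in WT replicate 1 as in MKO replicate 3, at -0.12 in both.

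Averaged over the 10 genes, which lie on both sides of 0, the deviation from the WT mean was -0.0080, 0.07 and 0.17 in the MKO arrays, against -0.02, -0.04 and 0.06 in the WT arrays. MKO replicate 1 lay among the WT arrays and MKO replicate 2 close to WT replicate 3, so the groups overlapped. Within MKO the SD of a member ran from 0.01 for Klf15 to 0.25 for Ddit4, and within WT from 0.05 for Foxo1 to 0.45 for Ddit4.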

How the data were processed

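Total RNA of 6 soleus samples was measured on Affymetrix Mouse Gene 2.0 ST arrays, 1 per mouse. Arrays have no read depth, and precision rests on their number. The deposited values are log2 values made by the authors with RMA in Affymetrix Expression Console, per the labels and the submitters' processing notes. The software version, build and annotation behind them were not stated there. Rows were named through the platform's annotation of the array, and the 233753 rows with exactly 1 gene symbol gave 23152 genes by averaging. Of 269751 rows, 5106 had several symbols and 30892 none and were not used for genes.

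MKO minus WT was tested two-sided by moderated linear models (limma 3.58.1 under R 4.3.3, variance trend on). Benjamini-Hochberg adjustment ran over all genes, or over all rows for probe sets. The fits were tested on simulated data. Members and lists were chosen with earlier results of these data known, so they are described by counts and medians without a list test. Named genes were the members, Gna13 and, per list, the 4 with the smallest p, and of each member the probe sets with the lowest and highest difference or an unadjusted p under 0.01. Of the fibre markers, Myh7 and those at an unadjusted p under 0.05 are named. Of 112 distinct list entries 109 were measured, 1 of them under an older symbol. Alternatives were other limma settings, scalings, probe set summaries and filters, a re-implemented local pooled error test (the test the labels name) and each array left out in turn. Promoters came from RefSeq. Figures were drawn with matplotlib 3.10.9 in Python 3.11.15.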

Additional observations from a re-analysis of the deposited data

How the results depend on the processing

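In 16 other settings per gene, no member reached an adjusted p under 0.05. Foxo1, Ddit4, Klf15 and Sesn1 kept their direction in all 16. Their ranges were 0.25 to 0.37, 0.34 to 0.76, 0.11 to 0.24 and -0.36 to -0.15. The gene level filter, the block for the replicate number and limma settings other than array weights left each difference as reported. For Ddit4 and Klf15 the brighter probe sets did so too. A sign could not turn there, so only the remaining settings bear on the direction. Members at an unadjusted p under 0.05 numbered 3 as reported, 1 without the variance trend, 0 with the median of probe sets, 1 by the local pooled error test and 1 to 2 with an array left out, and 3 to 8 of their probe sets instead of 5. The median over the members was 0.13 with the median of probe sets and 0.0027 to 0.07 with an array left out. Over all genes, the local pooled error test called 8 higher and 17 lower, array weights called 1 lower (Rrad, which also passed without WT replicate 3), and leaving out an array called 0 to 1 higher (an immunoglobulin kappa variable gene, without WT replicate 1) and 0 to 1 lower. Genes at an unadjusted p under 0.05 numbered 1002 as reported, 1805 with array weights, 500 of the genes above the median level and 693 to 1561 with an array left out. Quantile normalization and median centring left Txnip alone among the members with a new sign, at 0.0359 after quantile normalization.

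Signs turned as follows. Txnip was 0.0070 and Gadd45a 0.0843 with the median of probe sets, as were Bcl6 at -0.0362 and Stub1 at 0.15. With bright probe sets only, Foxo4 was -0.0136, Skp2 0.0199, Stub1 0.13 and Sesn2 0.0022. Fbxo32 was -0.0439 with array weights and -0.0053 by the local pooled error test. With an array left out, Foxo3 ran from -0.0061 to 0.0716, Foxo4 from -0.0555 to 0.0760, Fbxo32 from -0.0501 to 0.116, Trim63 from -0.0060 to 0.162 and Txnip from -0.156 to 0.0725. Among the lowest and highest probe sets of each member, 17405166 ran from -0.0593 to 0.30, 17536662 from -0.13 to 0.47, 17460830 from -0.17 to 0.23, 17232919 from -0.22 to 0.92 and 17467317 from -0.0914 to 0.28. The cause was not tested. With the replicate number as a block, 873 genes and 2 members had an unadjusted p under 0.05 (Sesn1 at 0.0705). Deviations of same-numbered arrays correlated at -0.09, 0.09 and -0.24 over all genes, and those of differently numbered arrays at -0.23 to 0.30. Same-numbered arrays thus showed no greater likeness. With 3 arrays per group, these values cannot decide whether the numbers pair the mice.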

Other observations

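Gadd45g and Arrdc3, further genes of the lists, were chosen after their values were seen. The groups overlapped in both, which was the usual case, since only 9.25% of all genes had groups that did not overlap. A pattern shared with Ddit4 and Arrdc2 was not tested. Gadd45g, a stress gene related to Gadd45a, stood at 6.83, 7.17 and 7.53 in MKO, against 6.64, 6.47 and 7.45 in WT. WT replicate 3 was second only to MKO replicate 3, and the difference was 0.33 (SE 0.23, limma unadjusted p = 0.178). Arrdc3, another arrestin-domain gene, was lowest in MKO replicate 1 and highest in MKO replicate 3, at 7.10 and 7.83, with 7.33 to 7.78 in WT and a difference of -0.03 (SE 0.17).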
